A study of Mus musculus with 10 samples.

Results

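The genes described are 10 enzymes that remove quinones, aldehydes, carbonyls, epoxides, peroxides and superoxide: *Nqo1*, *Adh7*, *Akr1b8*, *Akr1b3*, *Cbr1*, *Cbr3*, *Ephx1*, *Cat*, *Sod1* and *Sod2*. They were taken by symbol, through the Ensembl identifiers of the count table, and are 10 of 43432 genes counted. RAW264.7 cells, an established mouse macrophage line, were studied in 5 conditions with 2 libraries each. Resting cells received the solvent alone (DMSO, 0.5%), and the other 4 conditions also received bacterial lipopolysaccharide (LPS, 1 µg/mL) after a 1 h pretreatment with solvent (DMSO + LPS) or with compound **1** at 32, 10 or 3.2 µM, and RNA was taken 12 h later. Compound **1** is a monounsaturated keto fatty acid, isolated from marine cyanobacteria, with an α,β-unsaturated carbonyl. Every dose of **1** was given together with LPS, so its action on resting cells was not measured, and the replicates are labelled as bioreps of 1 cell line without further detail, so that p-values measure only the spread between these libraries.

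Reactive carbonyls and quinones modify thiols, and cells answer them with reductases that turn a quinone into a hydroquinone or an aldehyde into an alcohol. Many of these enzymes are textbook targets of Nrf2, a transcription factor that is held back by Keap1 until electrophiles modify Keap1, and that binds the antioxidant response element (ARE). Macrophages activated by LPS make superoxide and nitric oxide, and superoxide dismutases and catalase dispose of superoxide and of hydrogen peroxide.

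Counts are given as CPM (counts scaled to a common library size) after scaling by the trimmed mean of M-values (TMM). A gene was called where it changed at least 1.5-fold with a Benjamini-Hochberg adjusted p below 0.05 over 14172 genes tested by the quasi-likelihood test of edgeR, and all 10 members were among those tested. With 2 libraries against 2, an exact permutation test of a single gene cannot go below p = 0.333, so every p-value given comes from the model fitted across all genes. Groups without overlap were common over all genes tested, at 76.9% with LPS, 50% at 32 µM, 35.8% at 10 µM and 45.9% at 3.2 µM. The share was 32.6% between 32 and 10 µM, 34.2% between 10 and 3.2 µM and 71.4% between 32 µM with LPS and resting cells. The libraries held 45966803 to 58976377 counts and the macrophage markers fixed for the check were present, *Cd68* at 599 to 723 CPM and *Csf1r* at 805 to 2310 CPM, with *Mrc1* low at 1.25 to 2.58 CPM. The 10 macrophage markers summed to 11993 and 11105 CPM in resting cells, 10440 and 10559 CPM with DMSO + LPS, 9878 and 9719 CPM at 3.2 µM, 9368 and 8633 CPM at 10 µM and 8512 and 8122 CPM at 32 µM, so that both libraries at each dose lay below both with DMSO + LPS. At 32 µM 4 of them were called lower by edgeR, *Fcgr1* (log2 -1.70), *Mrc1* (-0.93), *Itgam* (-0.67) and *Lyz2* (-0.61), and the other 6 lay between -0.38 (*Cd14*) and 0.40 (*Csf1r*) without a call. At 10 µM *Fcgr1* alone was called, as lower (log2 -0.68). With LPS 5 of the 10 markers were called higher, such as *Cd14* (log2 1.54), and 2 lower, *Csf1r* (-1.48) and *Lyz2* (-0.65). The most abundant markers weigh most in the sum, *Lyz2* at 4127 CPM with DMSO + LPS and 2707 CPM at 32 µM, and *Cd14* at 3311 and 2549 CPM. Among the others at 32 µM, *Spi1* was at -0.12, *Ptprc* at 0.04, *Cd68* at 0.10 and *Adgre1* at -0.31 on the log2 scale. In bulk RNA, fewer cells of a type and less RNA per cell cannot be told apart. The part of these differences in the values of the 10 enzymes was not tested. All 10 LPS response genes used as a check of the labels were called higher with LPS.

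A pair of libraries stood apart. Replicate 1 at 10 µM held all 5 epithelial markers examined, with 1039 counts of *Krt8*, 747 of *Krt19*, 451 of *Epcam*, 200 of *Cdh1* and 87 of *Krt18*, and replicate 1 at 3.2 µM held 153, 84, 78, 25 and 12 counts of the same genes. None of these genes had more than 3 counts in any of the other 8 libraries. The summed level of the 5 markers was 54.2 CPM in replicate 1 and 0.0664 CPM in replicate 2 at 10 µM, and 7.59 and 0 CPM at 3.2 µM. In resting cells it was 0.136 and 0.0352 CPM, and in the libraries with DMSO + LPS or 32 µM it was 0. The 5 fibroblast markers summed to 7.87 and 1.32 CPM in the same 2 libraries and to between 0.068 and 0.286 CPM elsewhere. The 5 neutrophil markers summed to 1.09 and 0.599 CPM in resting cells, 6.55 and 6.32 CPM with DMSO + LPS, 7.25 and 6.33 CPM at 3.2 µM, 6.86 and 2.92 CPM at 10 µM and 2.49 and 1.59 CPM at 32 µM. Of these, *S100a8* alone passed the filter on low counts, and it was called higher with LPS (log2 2.98, edgeR adjusted p = 0.000439) and lower at 32 µM (log2 -1.74, adjusted p = 0.0257), with means of 0.801, 6.35 and 1.89 CPM in resting cells, DMSO + LPS and 32 µM. The part of this in the values of the 10 enzymes was not tested. Markers of T cells and B cells did not exceed 0.465 CPM in any library. The part of the epithelial and fibroblast transcripts in the values at 10 and 3.2 µM was not tested, and values of each member without both libraries that stood apart are given with it. In replicate 2 at 32 µM, ribosomal RNA features took 2.83% of counts, against 0.153% to 0.333% in the other libraries.

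Promoters of 3 members are shown because they bear the largest response to **1** (*Nqo1* and *Adh7*) or the only match to the ARE core (*Sod1*). Each runs from 250 bases before to 50 bases after the start of the gene, from RefSeq on GRCm38.p6, 5′ to 3′ on the strand of the gene: chr8:107403156-107403455 on the minus strand for *Nqo1*, chr3:138217523-138217822 on the plus strand for *Adh7* and chr16:90220512-90220811 on the plus strand for *Sod1*. Capitals mark a match on either strand to the ARE core (TGACNNNGC) or to the AP-1 site (TGANTCA), a site of the LPS-responsive factor AP-1. The letters of the 2 motifs can overlap, since TGAC followed by TCAGC fits both, but no bases were shared in these windows.
Nqo1: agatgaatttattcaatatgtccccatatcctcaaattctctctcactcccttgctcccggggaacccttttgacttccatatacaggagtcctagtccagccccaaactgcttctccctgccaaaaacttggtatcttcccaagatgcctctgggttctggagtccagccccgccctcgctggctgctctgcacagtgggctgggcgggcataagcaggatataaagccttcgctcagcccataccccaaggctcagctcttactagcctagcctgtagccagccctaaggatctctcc
Adh7: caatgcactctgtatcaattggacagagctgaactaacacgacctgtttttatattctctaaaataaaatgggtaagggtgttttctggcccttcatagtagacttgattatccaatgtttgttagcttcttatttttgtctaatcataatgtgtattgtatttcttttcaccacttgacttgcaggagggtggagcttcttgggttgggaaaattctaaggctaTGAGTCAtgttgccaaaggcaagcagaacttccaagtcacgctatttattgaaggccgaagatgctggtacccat
Sod1: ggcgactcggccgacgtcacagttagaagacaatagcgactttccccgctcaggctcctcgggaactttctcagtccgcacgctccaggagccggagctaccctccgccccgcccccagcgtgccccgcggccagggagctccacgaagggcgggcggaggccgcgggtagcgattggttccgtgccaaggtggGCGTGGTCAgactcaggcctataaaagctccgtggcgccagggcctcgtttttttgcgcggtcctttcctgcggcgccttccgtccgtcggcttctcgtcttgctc

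Promoters were found for 9 of the 10 members, all but *Akr1b3*. The ARE core was present in *Sod1* alone, as TGACCACGC read on the minus strand at positions -56 to -48 from the start, and 12.4% of 32851 promoters of the same length held it. The AP-1 site was present in *Adh7* alone, as TGAGTCA at -25 to -19, and 7.81% of promoters held it. *Nqo1*, the most strongly raised member, had neither, which says only that these letters are not in its 300 bases.

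Compound **1** raised some of the quinone, aldehyde and peroxide members, and those unequally. Against DMSO + LPS, 6 of the 10 genes rose at 32 µM (*Nqo1*, *Adh7*, *Akr1b8*, *Akr1b3*, *Cbr3* and *Cat*) and none fell, while 1.27% of all genes tested were called higher and 2.91% lower. At 10 µM, 3 of them rose (*Nqo1*, *Adh7* and *Akr1b8*), with 0.282% of all genes called higher. The median log2 fold change over the 10 members was 0.78 at 32 µM, 0.41 at 10 µM and 0.14 at 3.2 µM, and over all genes tested it was 0.01, 0.02 and 0.00, respectively. *Cbr1*, *Ephx1*, *Sod1* and *Sod2* were not called at any dose.

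LPS by itself moved 6 members: *Nqo1*, *Adh7*, *Akr1b8*, *Cat* and *Sod2* rose and *Ephx1* fell in DMSO + LPS against DMSO. Of all genes tested, 14.6% rose and 13.6% fell in that comparison, so that a change with LPS was common. The median over the members was 0.54 on the log2 scale, against 0.00 over all genes. With library size in place of TMM the median of all genes lay at -0.20 and 35.0% of the calls were higher, against 51.9% with TMM. Under that scaling the count of members stayed at 6, but *Cat* was lost (log2 fold change 0.45) and *Cbr1* was gained (-0.60).

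**Figure D1:**
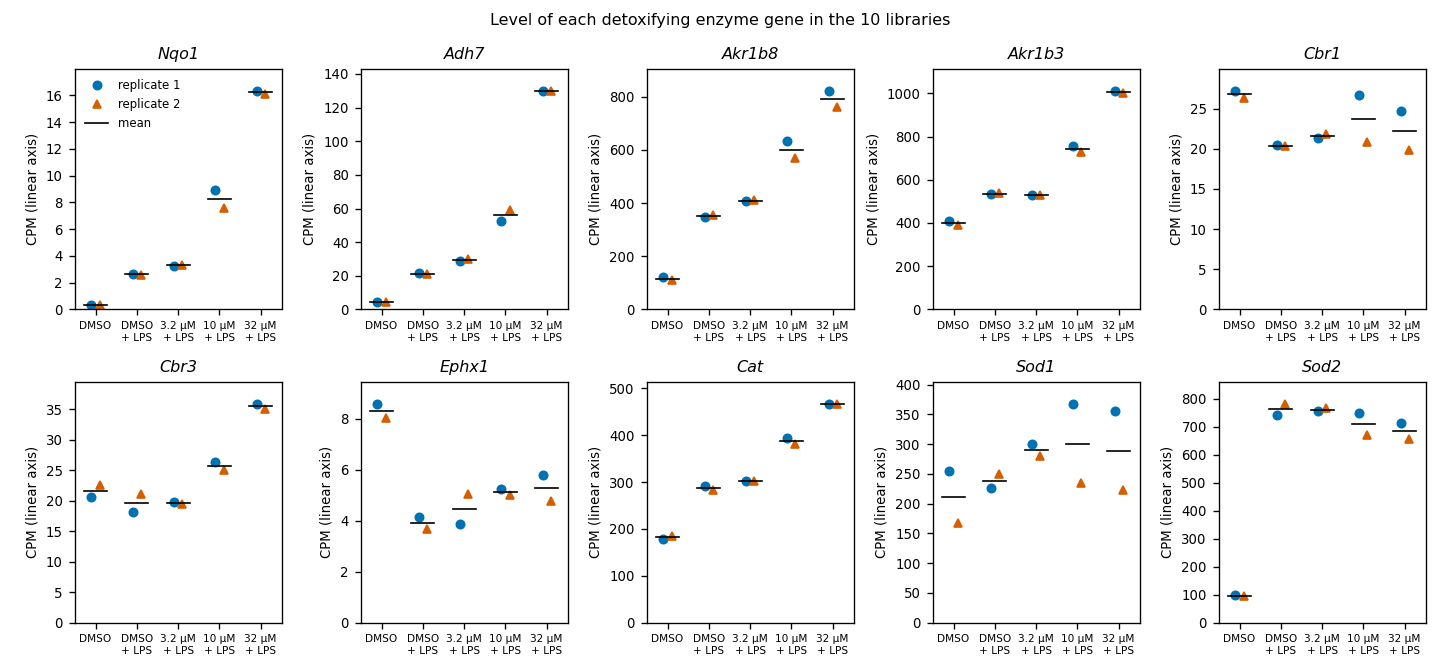
Level of each gene in CPM (linear axis from 0) in the 10 libraries, with replicate 1 as circles, replicate 2 as triangles and the mean as a bar. *Nqo1* stood at 0.31 and 0.37 CPM in resting cells and at 16.3 and 16.1 CPM at 32 µM, while *Sod2* rose with LPS and then lay between 657 and 782 CPM in all 8 LPS libraries.

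*Nqo1* (ENSMUSG00000003849, chr8:107388225-107403206, minus strand, GRCm38) encodes NAD(P)H:quinone oxidoreductase, which reduces quinones to hydroquinones and so avoids the reactive semiquinone. Resting cells held 0.31 and 0.37 CPM, which were 18 and 21 counts, and cells with DMSO + LPS held 2.65 and 2.58 CPM. With **1** the gene reached 3.26 and 3.35 CPM at 3.2 µM, 8.94 and 7.61 CPM at 10 µM and 16.3 and 16.1 CPM at 32 µM. No group overlapped another, and the order of the levels was resting, LPS alone, 3.2, 10 and 32 µM. LPS raised *Nqo1* 7.70-fold (log2 2.94, 95% interval 2.62 to 3.27, edgeR adjusted p = 9.00e-07). On top of LPS, **1** raised it 6.20-fold at 32 µM (log2 2.63, 2.37 to 2.89, adjusted p = 6.36e-06) and 3.16-fold at 10 µM (log2 1.66, 1.40 to 1.92, adjusted p = 0.000423). The lowest dose left 1.26-fold, which did not pass the test (log2 0.34, 0.08 to 0.60, adjusted p = 0.999). Between resting cells and 32 µM with LPS the level differed by a factor of 47.7 (log2 5.58, 5.25 to 5.90).

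Neighboring doses of **1** also differed for *Nqo1*. The level was 1.96-fold higher at 32 than at 10 µM (log2 0.97, edgeR adjusted p = 0.00222) and 2.50-fold higher at 10 than at 3.2 µM (log2 1.32, adjusted p = 0.00311). Without replicate 1 at 10 µM, one of the libraries with epithelial transcripts, the rise at 10 µM was 1.54 on the log2 scale (adjusted p = 0.00191), and without both libraries it was 1.54 (adjusted p = 0.0185), with 0.36 at 3.2 µM. The call between 10 and 3.2 µM was lost without replicate 1 at 3.2 µM (log2 1.30, adjusted p = 0.0786), without replicate 2 at 3.2 µM (1.34, 0.0704) and without both libraries with epithelial transcripts (1.18, 0.199).

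*Adh7* (ENSMUSG00000055301, chr3:138217760-138233382, plus strand) encodes a class IV alcohol dehydrogenase that interconverts alcohols, retinol among them, and aldehydes. Its levels were 4.44 and 4.37 CPM in resting cells, 21.6 and 21.1 CPM with DMSO + LPS, 28.8 and 30.1 CPM at 3.2 µM, 52.8 and 59.2 CPM at 10 µM and 129.6 and 130.0 CPM at 32 µM. As for *Nqo1*, no groups overlapped and the order was the same. LPS raised *Adh7* 4.84-fold (log2 2.27, 95% interval 2.12 to 2.43, edgeR adjusted p = 7.75e-08), and **1** raised it a further 6.09-fold at 32 µM (log2 2.61, 2.46 to 2.76, adjusted p = 5.21e-07) and 2.63-fold at 10 µM (log2 1.39, 1.25 to 1.54, adjusted p = 9.20e-05). At 3.2 µM both libraries lay above both with DMSO + LPS, by 1.38-fold (log2 0.47, 0.32 to 0.61), with an adjusted p of 0.229.

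Of the 10 genes, *Adh7* had the largest step between 10 and 32 µM, 2.32-fold (log2 1.21, edgeR adjusted p = 8.12e-05), and it rose 1.90-fold between 3.2 and 10 µM (log2 0.93, adjusted p = 0.00106). Only *Nqo1* and *Adh7* were called between neighboring doses, where 0.169% of all genes were called higher at 32 than at 10 µM and 0.0706% at 10 than at 3.2 µM. When only the 4 libraries compared were fitted, neither gene was called in either step, with adjusted p of 0.0603 to 0.166. At 10 µM without replicate 1, *Adh7* remained called against DMSO + LPS (log2 1.47, adjusted p = 0.000231), as it did without both libraries with epithelial transcripts (1.47, adjusted p = 0.00312), where it was at 0.50 at 3.2 µM without a call. The antisense gene 0610031O16Rik overlaps exons of *Adh7*, and it held 68 counts over the 10 libraries against 22932 of *Adh7*.

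The aldo-keto reductases reduce aldehydes and ketones with NADPH. *Akr1b8* (ENSMUSG00000029762, chr6:34354119-34368463, plus strand), a reductase of lipid aldehydes, stood at 121.7 and 110.9 CPM in resting cells, 349.2 and 356.1 CPM with DMSO + LPS, 407.3 and 410.1 CPM at 3.2 µM, 631.8 and 570.8 CPM at 10 µM and 822.5 and 761.0 CPM at 32 µM. Again no group overlapped another. The gene rose 3.03-fold with LPS (log2 1.60, 95% interval 1.44 to 1.76, edgeR adjusted p = 5.69e-07), then 2.24-fold at 32 µM (log2 1.17, 1.01 to 1.33, adjusted p = 3.13e-05) and 1.70-fold at 10 µM (log2 0.77, 0.61 to 0.93, adjusted p = 0.00182). The value at 10 µM was 0.69 on the log2 scale without replicate 1 (adjusted p = 0.00685) and also without both libraries with epithelial transcripts (adjusted p = 0.041). At 3.2 µM it was 0.21 (0.05 to 0.37, adjusted p = 0.999), and 0.22 without both libraries.

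*Akr1b3* (ENSMUSG00000001642, chr6:34302434-34317478, minus strand), aldose reductase, lies 36640 bases from *Akr1b8* with no protein-coding gene between them. It was the member with the highest CPM at 32 µM. Levels were 411.0 and 389.7 CPM in resting cells and 532.9 and 539.6 CPM with DMSO + LPS, a difference of 1.34-fold that passed the adjusted p but not the fold cutoff (log2 0.42, 0.32 to 0.52, edgeR adjusted p = 7.36e-05). The levels at 3.2 µM, 530.0 and 529.3 CPM, were just below those with DMSO + LPS (log2 -0.02, -0.12 to 0.08). They were 755.8 and 729.9 CPM at 10 µM, 1.39-fold above DMSO + LPS and under the fold cutoff (log2 0.47, 0.37 to 0.57, adjusted p = 0.00184). At 32 µM they were 1012 and 1001 CPM, a rise of 1.88-fold (log2 0.91, 0.81 to 1.01, adjusted p = 9.11e-06). Without both libraries with epithelial transcripts, the value at 10 µM was 0.44 (edgeR adjusted p = 0.0607) and that at 3.2 µM -0.02. These counts carry a limit: 74.0% of the 100-base windows of the *Akr1b3* transcript also occur in the annotated transcripts of 4 other loci, 3 of them processed pseudogenes, and how the counting divided such reads is not given in the sources used here. The 4 loci held 0 to 430 counts in all libraries together, against 316169 for *Akr1b3*.

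The carbonyl reductases, which reduce quinones and ketones with NADPH, did not move together. *Cbr3* (ENSMUSG00000022947, chr16:93683215-93690990, plus strand) was at 20.7 and 22.5 CPM in resting cells, 18.2 and 21.2 CPM with DMSO + LPS, 19.8 and 19.4 CPM at 3.2 µM, 26.3 and 25.02 CPM at 10 µM and 35.9 and 35.1 CPM at 32 µM. Resting and LPS libraries overlapped (log2 -0.13, 95% interval -0.32 to 0.05). At 32 µM *Cbr3* rose 1.80-fold (log2 0.85, 0.66 to 1.04, edgeR adjusted p = 0.000378), and at 10 µM both libraries lay above DMSO + LPS without passing the test (log2 0.38, 0.20 to 0.57, adjusted p = 0.0567). Without both libraries with epithelial transcripts, *Cbr3* was at 0.35 at 10 µM (adjusted p = 0.416) and -0.02 at 3.2 µM. *Cbr3* and *Akr1b3* were the members called at 32 µM and not with LPS.

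*Cbr1* (ENSMUSG00000051483, chr16:93605853-93610505, plus strand) lies 72709 bases from *Cbr3*. Its levels were 27.2 and 26.3 CPM in resting cells, 20.5 and 20.3 CPM with DMSO + LPS, 21.4 and 21.9 CPM at 3.2 µM, 26.7 and 20.8 CPM at 10 µM and 24.7 and 19.8 CPM at 32 µM. With LPS the difference was under the fold cutoff (log2 -0.39, 95% interval -0.69 to -0.09, edgeR adjusted p = 0.0357). The libraries at 32 µM lay on either side of those with DMSO + LPS (log2 0.13, -0.18 to 0.43, adjusted p = 0.691), and the interval excludes a 1.5-fold change in either direction. At 10 µM replicate 1, the library with the most epithelial transcripts, was the higher one, and without it the log2 fold change was 0.03 in place of 0.22. It was also 0.03 without both such libraries, with 0.10 at 3.2 µM.

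*Ephx1* (ENSMUSG00000038776, chr1:180976210-181020904, minus strand) encodes microsomal epoxide hydrolase, which opens epoxides to diols. It was the one member called lower with LPS, from 8.59 and 8.02 CPM in resting cells to 4.14 and 3.66 CPM, 2.13-fold lower (log2 -1.09, 95% interval -1.45 to -0.73, edgeR adjusted p = 0.000561). With **1** the levels were 3.86 and 5.05 CPM at 3.2 µM, 5.24 and 5.0 CPM at 10 µM and 5.80 and 4.76 CPM at 32 µM. Both libraries at 10 and at 32 µM lay above both with DMSO + LPS and below both resting libraries. Such separation from DMSO + LPS was seen for 35.8% of all genes tested at 10 µM and 50% at 32 µM. Neither dose passed the test against DMSO + LPS (log2 0.39, 0.03 to 0.75, adjusted p = 0.367 at 10 µM, and log2 0.44, 0.07 to 0.80, adjusted p = 0.145 at 32 µM). Leaving out both libraries with epithelial transcripts gave 0.36 at 10 µM (adjusted p = 0.609) and 0.37 at 3.2 µM. At 32 µM with LPS *Ephx1* was still 1.57-fold lower than in resting cells (log2 -0.65, adjusted p = 0.00819), a call that was lost without replicate 2 at 32 µM (log2 -0.52, adjusted p = 0.0518).

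**Figure D2:**
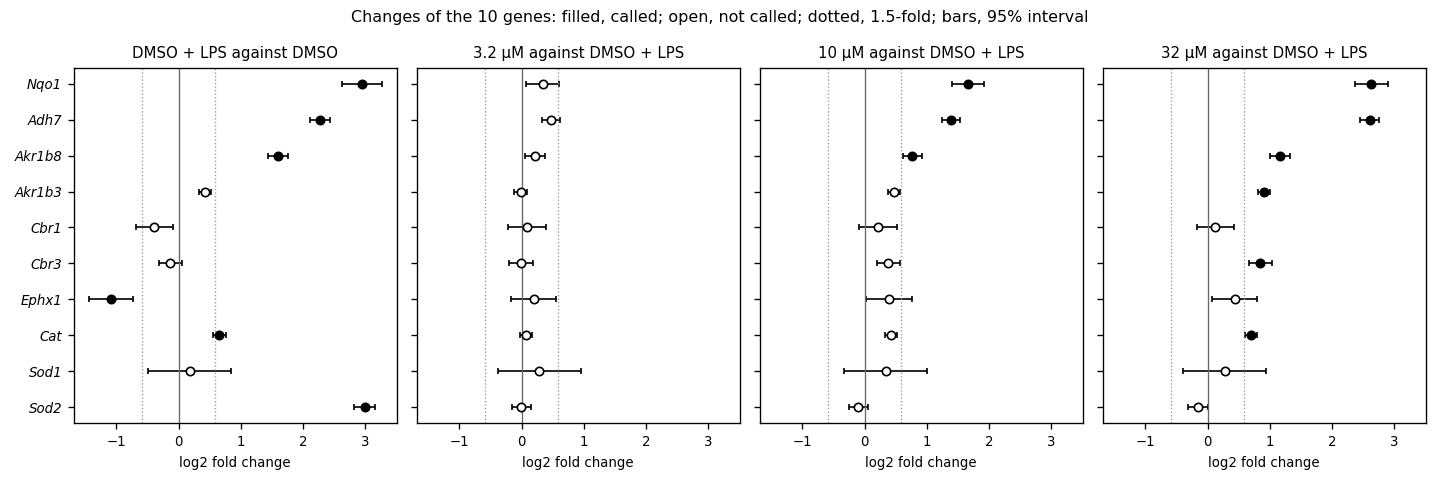
Log2 fold change of each gene with its 95% interval from the edgeR fit, for LPS against resting cells and for each dose of **1** against DMSO + LPS. Filled points are called, open points are not, and dotted lines mark 1.5-fold. *Nqo1* and *Adh7* led at 32 µM with 2.63 and 2.61, and *Sod2* led with LPS with 2.99 and lay at -0.15 at 32 µM.

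Among the enzymes that dispose of oxygen species, catalase rose with both LPS and **1**. *Cat* (ENSMUSG00000027187, chr2:103453849-103485160, minus strand), the peroxisomal enzyme that splits hydrogen peroxide, was at 179.4 and 185.0 CPM in resting cells, 292.1 and 282.4 CPM with DMSO + LPS, 301.6 and 301.6 CPM at 3.2 µM, 393.7 and 380.9 CPM at 10 µM and 466.5 and 466.8 CPM at 32 µM. The groups did not overlap and stood in the same order as for *Nqo1*. The rise was 1.58-fold with LPS (log2 0.66, 95% interval 0.56 to 0.75, edgeR adjusted p = 5.18e-06) and 1.62-fold at 32 µM on top of LPS (log2 0.70, 0.60 to 0.80, adjusted p = 3.22e-05). At 10 µM the difference of 1.35-fold was under the fold cutoff (log2 0.43, 0.33 to 0.53, adjusted p = 0.00254), and at 3.2 µM it was 1.05-fold (log2 0.07, -0.03 to 0.17, adjusted p = 0.999). The values were 0.41 (adjusted p = 0.0738) and 0.07 without both libraries with epithelial transcripts.

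*Sod2* (ENSMUSG00000006818, chr17:13006846-13040063, plus strand) encodes the manganese superoxide dismutase of mitochondria and is a textbook target of NF-κB. It went from 98.2 and 93.7 CPM in resting cells to 744.2 and 782.4 CPM with DMSO + LPS, 7.95-fold higher (log2 2.99, 95% interval 2.82 to 3.16, edgeR adjusted p = 2.41e-08), the largest LPS response of the 10 genes. With **1** the levels were 757.4 and 766.7 CPM at 3.2 µM, 751.3 and 671.7 CPM at 10 µM and 714.9 and 656.7 CPM at 32 µM. Both libraries at 32 µM were below both with DMSO + LPS, by 1.11-fold, which did not pass the test (log2 -0.15, -0.31 to 0.00, adjusted p = 0.229). The intervals exclude a 1.5-fold change at each of the 3 doses, being -0.26 to 0.05 at 10 µM and -0.16 to 0.15 at 3.2 µM. Without replicate 1 at both of these doses, the libraries with epithelial transcripts, *Sod2* was at -0.18 and 0.01, neither called.

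*Sod1* (ENSMUSG00000022982, chr16:90220754-90226329, plus strand), the copper and zinc superoxide dismutase of the cytosol, varied more between replicates than between groups. Its levels were 254.2 and 166.8 CPM in resting cells, 226.7 and 249.5 CPM with DMSO + LPS, 300.2 and 280.1 CPM at 3.2 µM, 367.7 and 234.5 CPM at 10 µM and 355.0 and 222.5 CPM at 32 µM. Both libraries at 3.2 µM lay above both with DMSO + LPS, and the libraries at 10 and 32 µM overlapped those with DMSO + LPS. No comparison passed the test, and the intervals are wide: -0.49 to 0.85 on the log2 scale for LPS, -0.39 to 0.95 at 32 µM, -0.33 to 1.01 at 10 µM and -0.38 to 0.95 at 3.2 µM. Each of these intervals holds a 1.5-fold rise, so that a rise of that size is not excluded for *Sod1* at this spread. The value was -0.02 at 10 µM and 0.24 at 3.2 µM without both libraries with epithelial transcripts.

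The *Sod1* transcript is short, at 641 nt, and its level was set beside the share of short transcripts in a library. That share was measured as a score, the median log2 deviation of 603 expressed genes, *Sod1* among them, with transcripts under 1000 nt. The score ran from -0.36 in resting replicate 2 to 0.28 in replicate 1 at 10 µM, and within all 5 groups the library with the higher score had the higher *Sod1* level. At 32 µM, the replicates had scores of 0.12 and -0.25 with 355.0 and 222.5 CPM. With the score in the fit, *Sod1* was 0.37 higher on the log2 scale at 32 µM (edgeR adjusted p = 1.27e-06) and -0.09 with LPS (adjusted p = 0.0295), both under the fold cutoff. The score was taken from the same libraries and from short genes such as *Sod1*, so that agreement with it is in part built in. Neither the shared order nor the adjusted p with the score is independent support. How many other genes share that order was not counted, and the part of the score in the values without it was not tested. A processed pseudogene, *Gm8566*, shares 4.24% of the 100-base windows of *Sod1* and held 416 counts against 132191.

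**Figure D3:**
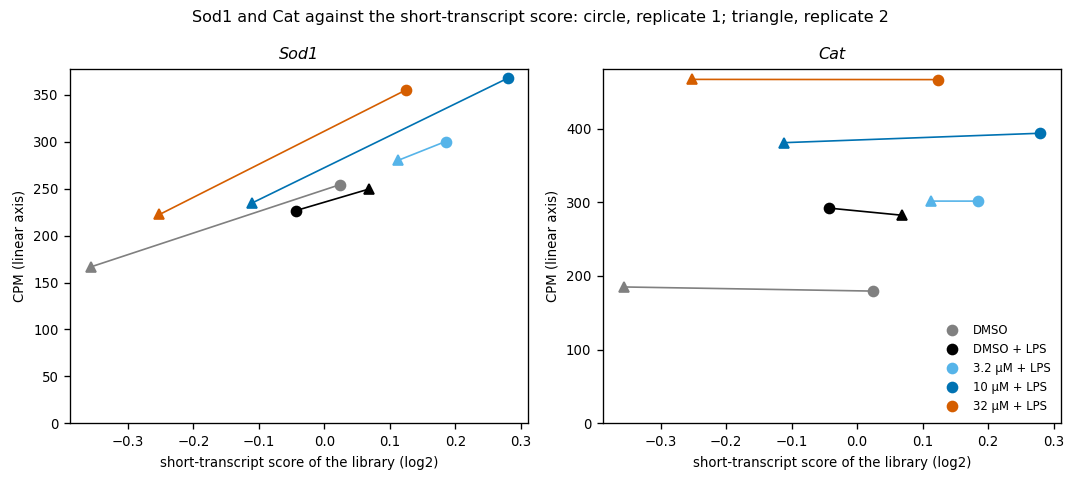
CPM (linear axis from 0) of *Sod1* and *Cat* against the short-transcript score of each library (log2 deviation), with lines joining the replicates of a group. *Sod1* differed between replicates, as at 32 µM with 355.0 and 222.5 CPM, while *Cat* stood at 466.5 and 466.8 CPM in the same libraries.

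Per kilobase of the longest coding transcript, the order of the 10 genes in resting cells was *Sod1* (328 CPM per kb), *Akr1b3* (289), *Akr1b8* (85.7), *Cat* (69.7), *Cbr1* (21.6), *Cbr3* (18.5), *Sod2* (16.4), *Ephx1* (4.77), *Adh7* (1.28) and *Nqo1* (0.218), as means of 2 libraries. Among neighbors in this order, the libraries of *Sod1* and *Akr1b3* overlapped in this unit. At 32 µM with LPS the order was *Akr1b3* (726), *Akr1b8* (583), *Sod1* (450), *Cat* (179), *Sod2* (117), *Adh7* (37.8), *Cbr3* (30.3), *Cbr1* (18.0), *Nqo1* (10.5) and *Ephx1* (3.03). *Nqo1* therefore remained among the less abundant members although it was 47.7-fold above resting cells, and the aldo-keto reductases had the highest means. With DMSO + LPS the mean of *Akr1b3* (387) was already above that of *Sod1* (371), with overlapping libraries, and *Akr1b8* was at 260. At 32 µM the lower *Akr1b8* library (560) lay near the higher *Sod1* library (554).

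At 3.2 µM no member and no gene at all was called by edgeR (0% of those tested), while 3 members (*Nqo1*, *Adh7* and *Akr1b8*) and 600 genes had an unadjusted p below 0.05. DESeq2 called 0 members and 8 genes, and edgeR on the 4 libraries compared called 66 genes. The libraries at 3.2 µM did not overlap those with DMSO + LPS for 7 of the 10 members, beside 45.9% of all genes. Without replicate 1 at 3.2 µM the log2 fold change was 0.50 for *Adh7* and 0.36 for *Nqo1*, with no call.

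When 32 µM with LPS was set against resting cells, 7 members were higher and *Ephx1* was lower, with 13.9% of all genes higher and 13.3% lower. With library size in place of TMM, the median of all genes was -0.18, 34.7% of the calls were higher, against 51.1% with TMM, and 7 members were called, *Cbr3* being lost (log2 0.51). That comparison and those above share libraries, so their values stand side by side only: *Adh7* was 29.5-fold higher (log2 4.88), *Sod2* 7.14-fold (2.84), *Akr1b8* 6.81-fold (2.77), *Cat* 2.56-fold (1.36), *Akr1b3* 2.51-fold (1.33) and *Cbr3* 1.64-fold (0.72). *Cbr1* (log2 -0.27, 95% interval -0.57 to 0.03) and *Sod1* (0.46, -0.21 to 1.12) were not called.

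Of 47 other quinone and carbonyl enzymes (other aldo-keto reductases, aldehyde and alcohol dehydrogenases and short-chain reductases), 35 were tested, and at 32 µM none was called higher by edgeR and 1 lower, beside 1.27% and 2.91% of all genes tested, shares near which these counts lie. That gene was *Dhrs3*, a retinal reductase, which rose with LPS from 17.0 to 47.1 CPM (log2 1.47) and was at 24.8 CPM with 32 µM (log2 -0.92, adjusted p = 8.26e-05). *Akr1a1*, aldehyde reductase, was called higher with LPS (log2 0.61) and was at 0.52 at 32 µM, under the fold cutoff. With LPS, 2 of the 35 rose and 6 fell, beside 14.6% and 13.6% of all genes tested. Those that fell were *Aldh2*, the mitochondrial aldehyde dehydrogenase, from 399.8 to 212.7 CPM (log2 -0.91), *Nqo2*, the paralog of *Nqo1* (log2 -0.67), and *Akr1b10*, *Akr7a5*, *Aldh16a1* and *Ptgr2* (log2 -0.63 to -0.75). *Nqo2* differed from *Nqo1* also at 32 µM in value, where it stood at -0.11 on the log2 scale (adjusted p = 0.418). The median of the 35 genes was -0.13 with LPS and -0.01 at 32 µM, and at 10 and 3.2 µM no gene of the list was called.

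Of 16 other peroxide and superoxide enzymes, 11 were tested, and *Prdx1* alone was called at 32 µM, as higher, beside 1.27% of all genes tested. This peroxiredoxin, which reduces peroxides with thioredoxin, rose from 1100 to 4701 CPM with LPS (log2 2.10, edgeR adjusted p = 5.29e-08) and to 9415 CPM at 32 µM (log2 1.00, adjusted p = 2.58e-05). *Gpx3* and *Prdx5* also rose with LPS (log2 2.48 and 1.38) and *Gpx4* fell (-0.71), so that 3 of the 11 were higher and 1 lower, beside 14.6% and 13.6% of all genes. The median of the 11 genes was 0.00 with LPS and -0.05 at 32 µM. Among the 11 was *Gpx2*, with 0 CPM with DMSO + LPS and at 32 µM, against means of 0.86 CPM at 10 µM and 0.13 CPM at 3.2 µM. Its low level at 10 and 3.2 µM let it pass the filter on low counts. Its log2 fold change of 0 at 32 µM is therefore not a measured lack of change, although both medians include this gene.

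Of 30 other genes known as Nrf2 targets, 28 were tested. At 32 µM 12 were higher and none lower, beside 1.27% and 2.91% of all genes tested, at 10 µM 3 were higher (*Gsta1*, *Gsta3* and *Mgst2*, glutathione transferases), beside 0.282%, and at 3.2 µM none was called by edgeR. *Gsta1* and *Gsta3* were low, with means of 2.21 and 1.22 CPM. Without both libraries with epithelial transcripts, none of the 28 was called at 10 µM, where the log2 fold changes were 1.95 for *Gsta1* (adjusted p = 0.0597), 1.80 for *Gsta3* (0.167) and 0.58 for *Mgst2* (0.163), against 1.73, 1.72 and 0.75 with all libraries. With LPS 14 were higher and 1 lower, beside 14.6% and 13.6% of all genes. Among those called at 32 µM with a mean of at least 5 CPM, the largest changes were in *Osgin1* (15.2 to 38.7 CPM, log2 1.35), *Abcc4*, an exporter (log2 0.99), *Mgst2* (log2 0.98) and *Gclc*, the catalytic subunit of glutathione synthesis (log2 0.98). *Mgst2* and *Gclc* had moved the other way with LPS, by -0.70 and -0.50, the latter under the fold cutoff. The median log2 fold change of the 28 genes was 0.66 with LPS and 0.55 at 32 µM.

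**Figure D4:**
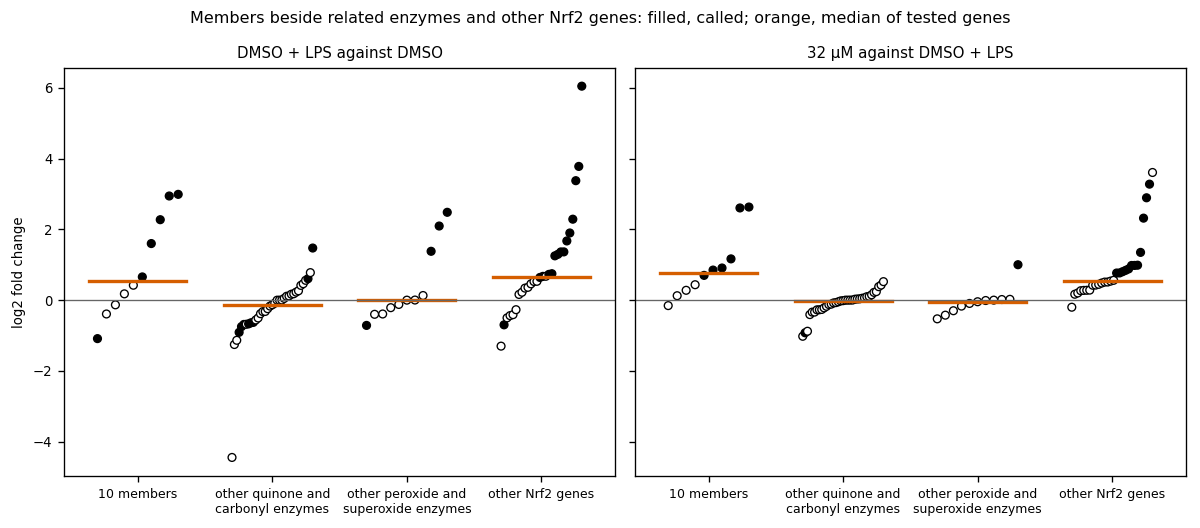
Log2 fold change of each tested gene with LPS (left) and at 32 µM against DMSO + LPS (right), for the 10 members and 3 lists of related genes, with called genes filled and the median as an orange bar. At 32 µM the median was 0.78 for the members, -0.01 and -0.05 for the other enzymes of both kinds and 0.55 for the other Nrf2 genes. *Gpx2*, with 0 CPM in both groups of that comparison, is plotted at 0 among the peroxide and superoxide enzymes.

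The pattern over the 10 libraries was compared by Pearson's r of log2(CPM + 0.5), as a description with no test, since libraries of a group share their treatment. *Nqo1*, *Adh7*, *Akr1b8*, *Akr1b3* and *Cat* ran together, with r of 0.916 to 0.998 between each pair, and r with *Nqo1* was 0.774 for *Sod2*, 0.734 for *Cbr3*, 0.529 for *Sod1*, -0.379 for *Cbr1* and -0.480 for *Ephx1*. Of 9562 genes with a mean of at least 5 CPM, the 5 most like *Nqo1* were *Cat* (0.998), *Adh7* (0.995), *Kcnk13* (0.994), a potassium channel, *Gclm* (0.991), the modifier subunit of glutathione synthesis, and *Alas1* (0.991), the first enzyme of heme synthesis. The 5 most like *Sod2* were *Gpr84*, *Tnip1*, *Plaur*, *Slc11a2* and *Ehd1*, with r of 0.9995 to 0.9999.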

How the data were processed

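RAW264.7 libraries were poly(A)-selected and directional. The authors deposited raw counts per Ensembl gene, without normalization, in 1 column per library. The submitters' processing notes name Trimmomatic, FastQC, STAR, DESeq2 and mm10. The counting tool, its strand setting and its annotation are not given in the sources used here. All 10 libraries (5 groups of 2) were used, and no 2 columns were identical.

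Symbols, positions and transcript lengths came from GENCODE M21 on GRCm38, and 42548 of 43432 identifiers matched. R 4.3.3 was used. Genes were filtered by filterByExpr (minimum count 10), scaled by TMM and fitted by edgeR 4.0.16 with 1 mean per group, which left 5 residual degrees of freedom. Quasi-likelihood tests were Benjamini-Hochberg adjusted over 14172 genes. The calling script was tested on simulated data. Levels per kilobase used the longest coding transcript. At the depth reached, counts of *Nqo1* in resting cells (18 and 21) carried the largest counting error.

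The members, gene lists and tests were chosen with earlier results of these data known. Genes named are all members, called genes of the 2 lists of other enzymes, at most 4 called Nrf2 genes with the largest change and a mean of at least 5 CPM, and the 5 genes most like *Nqo1* and *Sod2*. Names outside this rule (*Akr1a1* and other genes called with LPS alone, *Gsta1*, *Gsta3* and *Gpx2*, markers and pseudogenes) were chosen after their values were seen. Alternatives were other scalings, no filter, a replicate block, DESeq2 1.42.0, fits of 4 libraries, the short-transcript score, other fold cutoffs and leaving out libraries. Leaving out both libraries with epithelial markers was chosen after seeing the data.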

Additional observations from a re-analysis of the deposited data

Results flagged for a closer look

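The epithelial markers lie outside the comparisons of the 10 enzymes, and their summed level in 2 treated libraries was above that in every control library. It was 54.2 CPM in replicate 1 at 10 µM and 7.59 CPM in replicate 1 at 3.2 µM, against at most 0.136 CPM in the 4 libraries without **1**. The other replicates at these doses held 0.0664 and 0 CPM. *Nqo1* was at 8.94 CPM in replicate 1 at 10 µM and at 7.61 CPM in its replicate, *Cbr1* at 26.7 and 20.8 CPM and *Sod1* at 367.7 and 234.5 CPM. *Adh7* was lower in replicate 1 at 10 µM than in its replicate, at 52.8 and 59.2 CPM. The part of these transcripts in the values at 10 and 3.2 µM was not tested. Groups of 2 libraries are too small for a test of single libraries as outliers.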

How the results depend on the processing

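Each member's log2 fold change was recomputed under 18 settings in 7 comparisons, 1260 values in all, of which none that was called turned its direction. The calls at 32 µM (6 members) were made in every setting except a 2-fold cutoff, which left 3, and those at 10 µM (3 members) in every setting except no fold cutoff, which gave 5, and a 2-fold cutoff, which gave 2. No member was called at 3.2 µM in any setting. Between 32 and 10 µM, 2 members were called, but 0 when only the 4 libraries compared were fitted, 6 with no fold cutoff and 1 with a 2-fold cutoff. Between 10 and 3.2 µM, 2 were called, but 0 with the 4 libraries, 5 with no fold cutoff, 1 with a 2-fold cutoff, 1 without both libraries that held epithelial markers, and 1 to 3 leaving out 1 library at a time. Fits that leave 1 library in a group assume that it varies like the others. The replicate block changed no member's call (6, 6, 3 and 0 for LPS, 32, 10 and 3.2 µM, 2 for each step between doses and 8 for 32 µM against resting cells), the numbers are not stated to pair cultures, and differences between replicates correlated at -0.12 (LPS), -0.17 (32 µM), -0.11 (10 µM) and -0.07 (3.2 µM), and at 0.44 (32 and 10 µM), 0.57 (10 and 3.2 µM) and 0.53 (32 µM and resting cells). Over all genes, 122 calls at 10 µM became 41 with the 4 libraries, 228 with the short-transcript score, 45 without both libraries with epithelial markers and 52 to 227 leaving out 1 library, the ends being DMSO + LPS replicate 1 and 10 µM replicate 2, with 59 without DMSO + LPS replicate 2. For 32 against 10 µM 187 became 5 with the 4 libraries and 122 without both libraries with epithelial markers, and for 10 against 3.2 µM 36 became 0, 4 and, with the score, 109, and 5 to 66 leaving out 1 library (3.2 µM replicate 2 and 10 µM replicate 2). The cause was not tested.

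Values that changed sign were not called in either setting. *Sod1* with LPS was -0.029 with library size alone and -0.090 with the score, and for 32 against 10 µM it was 0.18 with the score. Without both libraries with epithelial markers, *Sod1* was -0.022 at 10 µM, 0.30 for 32 against 10 µM and -0.26 for 10 against 3.2 µM, *Sod2* was 0.0076 at 3.2 µM and 0.029 for 32 against 10 µM, *Cbr1* was 0.10 for 32 against 10 µM and -0.071 for 10 against 3.2 µM, and *Ephx1* was -0.015 for 10 against 3.2 µM. Leaving out 1 library at a time, *Sod1* ran from -0.11 to 0.51 with LPS, -0.10 to 0.58 at 32 µM, -0.022 to 0.60 at 10 µM, -0.43 to 0.30 for 32 against 10 µM and -0.31 to 0.33 for 10 against 3.2 µM. *Cbr1* ran from -0.042 to 0.27 at 32 µM, -0.26 to 0.10 for 32 against 10 µM and -0.056 to 0.29 for 10 against 3.2 µM. *Cbr3* ran from -0.11 to 0.10 at 3.2 µM, *Ephx1* from -0.017 to 0.37 at 3.2 µM and -0.11 to 0.18 for 32 against 10 µM, and *Sod2* from -0.038 to 0.034 at 3.2 µM and -0.12 to 0.029 for 32 against 10 µM.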
